A study of Mus musculus with 6 samples.

Results

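Polycomb repressive complex 1 (PRC1) was followed through 9 of its subunit genes, Cbx2, Cbx6, Cbx7, Cbx8, Ring1, Rnf2, Bmi1, Pcgf2 and Phc1, in mouse embryonic fibroblasts (MEFs) with and without the H2B ubiquitin ligase gene Rnf40. The members were taken by gene symbol from a table of 29955 genes, and all 9 were present and had enough reads to be tested. Of these, 4 were downregulated (Cbx2, Cbx6, Ring1 and Pcgf2), 2 were upregulated (Cbx7 and Rnf2), and Cbx8, Bmi1 and Phc1 did not pass the test, where 24.1% of all genes tested were lower and 23.3% higher. The call on Rnf2 was lost in 4 of 6 fits with a library left out. RNA-seq libraries came from primary MEFs at passage 3, with 3 libraries of genotype Rnf40+/+ and 3 of genotype Rnf40-/-. The cells were isolated from mice in which exons 3 and 4 of Rnf40 are flanked by loxP sites and a tamoxifen-activated Cre is expressed from the ubiquitous Rosa26 locus. For the knockout, MEFs were kept in 250 nM 4-hydroxytamoxifen (4-OHT) over 5 days and for a further 3 days in medium lacking it. Whether the Rnf40+/+ cells of these libraries also received 4-OHT is not stated, so deletion and treatment cannot be told apart here. The labels do not say whether the libraries of a genotype came from separate cultures or embryos, and the p-values then measure the spread between these libraries, which may be technical.

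PRC1 keeps developmental genes silent and places ubiquitin on histone H2A. Its catalytic core joins a RING-type E3 ligase, RING1 or RNF2 (also called RING1B), to a PCGF protein such as PCGF2 (MEL18) or BMI1. Canonical PRC1 adds a Polyhomeotic (PHC) protein, which can polymerise, and a CBX protein whose chromodomain binds H3K27me3, the mark laid down by the EZH2-containing complex PRC2, whereas variant PRC1 carries RYBP or YAF2 in place of CBX. In embryonic fibroblasts PRC1 is best known for holding back the Cdkn2a locus and thereby senescence.

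The values analysed are reads per gene after scaling by the size factor of each library (normalised counts). Libraries held between 17053436 and 26344170 reads on genes, and the members between 53 and 1989 reads in a library, so that each was far above a floor of 3 reads. Rnf40 itself was at 40.5% of its Rnf40+/+ level in the Rnf40-/- libraries. Among all 16378 genes tested, 47.4% were called in either direction (limma, Benjamini-Hochberg adjusted p under 0.05). Rnf40+/+ replicate 3 stood apart within its genotype, with a chi-square per gene of 25.9 and 28.8 against the other Rnf40+/+ libraries, which differed from each other by 8.35. The fibroblast markers were abundant in every library, with a summed normalised count between 669380 and 741260 in Rnf40+/+ and between 400370 and 403300 in Rnf40-/- MEFs, and 8 of 9 were lower after the deletion. The ninth, Dcn, was called higher only without Rnf40+/+ replicate 3 (0.43, adjusted p = 0.000812). Of the fits with a library left out, Vim (-0.26, adjusted p = 0.0483 over all libraries, limma) kept its call only without Rnf40+/+ replicate 3. In the other such fits, 7 fibroblast markers were lower. Macrophage markers summed to 4868 to 8789 in Rnf40+/+, with the highest sum in replicate 3, and to 3226 to 3529 in Rnf40-/- libraries, and of 6 tested 2 were higher and 1 was lower. The gene called lower, Lyz2, made up most of each sum (7440 in Rnf40+/+ replicate 3), while Ptprc was among those called higher (1.37). The endothelial sum was 24.5 to 124 and 112 to 166, the epithelial sum 23.5 to 83.6 and 24.0 to 42.8, the skeletal muscle sum 117 to 432 and 29.2 to 46.3 with Myod1 at 0 in all libraries, the neural crest and glial sum 76.7 to 104 and 114 to 127, and the germ cell sum 3.06 to 6.39 and 8.16 to 23.0. Of those lists, 2 of 3 endothelial genes tested were higher, the 1 skeletal muscle gene tested, Des, was lower, and none of the 3 epithelial and neural crest genes tested was called, while no germ cell gene had enough reads. Without Rnf40+/+ replicate 1, all 3 endothelial genes were higher, as Tek then passed (2.09). In that library, Des alone had 431 of the skeletal muscle sum and Tek 115 of the endothelial sum. All 10 proliferation genes fell, with a median log2 fold change of -2.41 and sums of 5845 to 7120 against 1923 to 2082. In bulk RNA, fewer cells of a type and less RNA per cell cannot be told apart, and the part of these marker shifts in the values below was not tested.

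**Figure D1:**
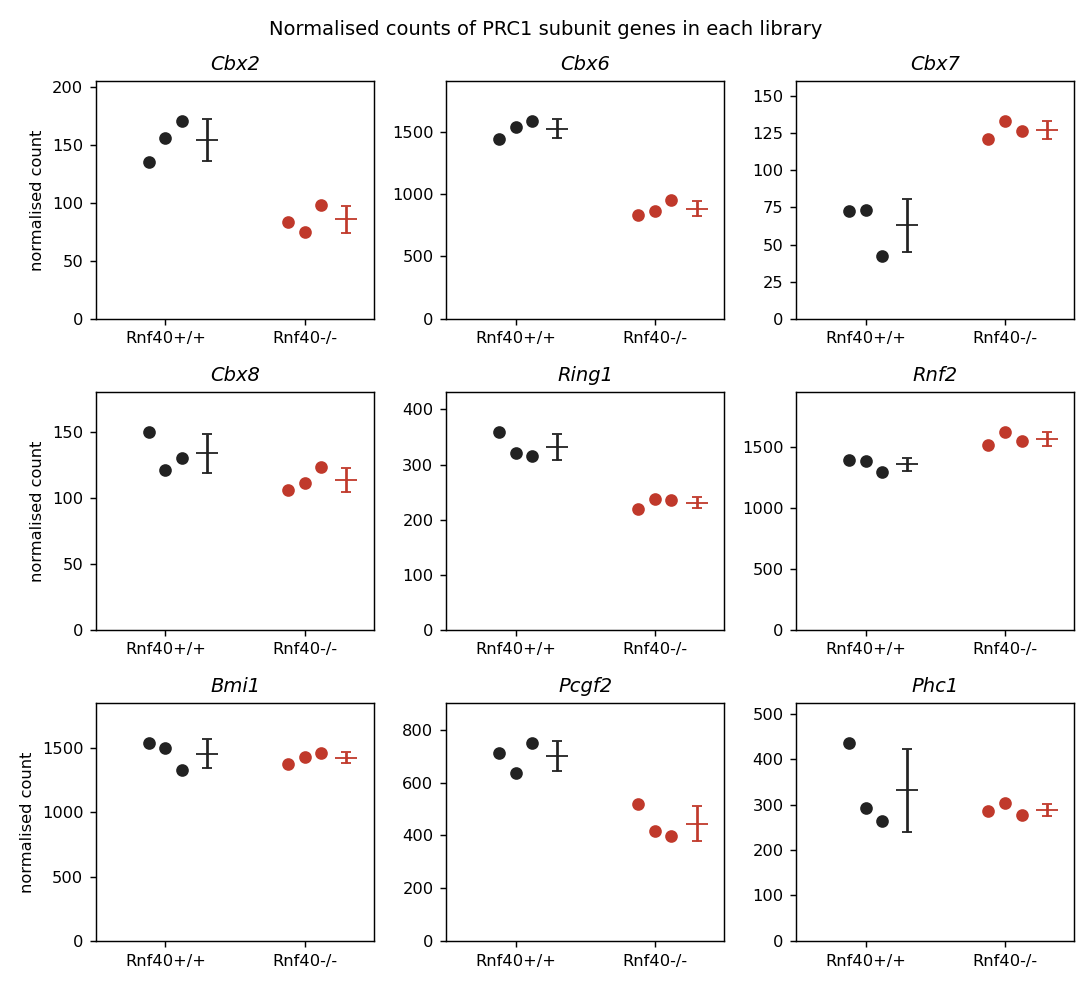
Normalised count of each PRC1 subunit gene in the 3 Rnf40+/+ libraries (black points, in replicate order) and the 3 Rnf40-/- libraries (red points), with the mean and SD (bar) beside them; each vertical axis starts at 0. The genotypes are separated in Cbx2, Cbx6, Cbx7, Ring1, Rnf2 and Pcgf2 and overlap in Cbx8, Bmi1 and Phc1.

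By the adjusted p, 6 of the 9 members (66.7%) were called against 47.4% of all genes, 2 of them higher and 4 lower. In the 4 fits that lost the call on Rnf2 it was 5 of 9 (55.6%), beside 46.2% of all genes without Rnf40+/+ replicate 3 and 38.1%, 38.7% and 40.8% without Rnf40-/- replicate 1, 2 and 3. The same 6 members showed no overlap between the genotypes, which 56.5% of all genes tested also showed. The median log2 fold change of the members, measured on log2(normalised count + 1) as all fold changes here, was -0.23, and that of all genes was -0.0035. Their median absolute fold change was 0.52 on this scale, beside 0.33 for all genes tested and 0.57 for the genes called. For regulated genes the study, using DESeq, required a mean above 15, p under 0.05 and a log2 fold change above 1 in size. Here these criteria were applied to the limma fit, with its unadjusted p. Cbx7 was the only member to pass, beside 9.95% of genes tested, 4.25% higher and 5.7% lower. Its fold change was below that minimum without Rnf40+/+ replicate 3 (0.79) and with a pseudocount of 10 (0.94), so that no member passed there. Summed over the 9 genes, the normalised count lay between 5885 and 6240 in Rnf40+/+ and between 5065 and 5216 in Rnf40-/- libraries. These sums were not divided by length and depend on the genes with the most reads. In normalised counts, Cbx6 (means of 1524 and 883) and Pcgf2 (701 and 445) fell the most, while Rnf2 rose (1358 and 1563).

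The CBX genes, which encode the H3K27me3 readers of canonical PRC1, moved in both directions. Cbx2 and Cbx6 were downregulated, Cbx7 was upregulated and Cbx8 did not pass the test. Cbx6 and Cbx7 are minus-strand genes of chromosome 15 (mm9), at 79654326-79665118 (ENSMUSG00000089715) and 79746237-79801549 (ENSMUSG00000053411). They are 81118 bases apart, with Apobec3 as the only annotated gene between them that the table holds. The windows from 250 bases before to 50 bases after the RefSeq start of these neighbours, which moved in opposite directions, are shown 5′ to 3′ on the gene strand, with the sequence CACGTG (an E-box) in capitals. The Cbx6 window (chr15:79664714-79665013) holds 31 CpG dinucleotides and 1 CACGTG, and that of Cbx7 (chr15:79763027-79763326) holds 33 CpG and none. The RefSeq start of Cbx7 lies 38473 bases downstream of the most upstream start annotated in mm9.
Cbx6: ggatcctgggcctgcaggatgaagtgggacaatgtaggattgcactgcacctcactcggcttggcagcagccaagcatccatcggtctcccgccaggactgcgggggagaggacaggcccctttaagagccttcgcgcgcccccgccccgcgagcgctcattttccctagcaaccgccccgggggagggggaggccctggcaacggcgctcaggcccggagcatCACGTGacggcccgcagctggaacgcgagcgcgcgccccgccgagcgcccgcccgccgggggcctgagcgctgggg
Cbx7: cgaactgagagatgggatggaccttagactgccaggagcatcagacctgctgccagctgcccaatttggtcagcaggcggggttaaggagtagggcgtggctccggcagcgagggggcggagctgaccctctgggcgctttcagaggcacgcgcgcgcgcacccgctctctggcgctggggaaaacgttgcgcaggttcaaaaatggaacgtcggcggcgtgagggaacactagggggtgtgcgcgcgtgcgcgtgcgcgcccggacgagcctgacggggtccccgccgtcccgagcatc

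Cbx6 had the highest level of the CBX genes. Rnf40+/+ libraries had 1444, 1540 and 1588 normalised counts, and Rnf40-/- libraries had 835, 865 and 948. Every Rnf40-/- library was below every Rnf40+/+ library, and the gap was several times the SD within a genotype (1524 ± 73.5 and 883 ± 58.4, SD, n = 3). Cbx6 changed by -0.79 on the log2 scale (standard error 0.0753, 95% interval -0.95 to -0.62, adjusted p = 5.62e-06, limma), leaving 57.9% of the Rnf40+/+ level. The annotated exons of Npcd, on the same strand, overlap 18.7% of the Cbx6 exons, and reads there cannot be assigned to either gene with certainty. Npcd had 148 ± 11.3 (SD, n = 3) normalised counts in Rnf40+/+ and 165 ± 17.5 in Rnf40-/- MEFs (log2 fold change 0.15, adjusted p = 0.39), at a far lower level than Cbx6.

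Cbx7, known for binding both H3K27me3 and RNA and for extending the lifespan of fibroblasts, was the member with the largest rise. Normalised counts were 72.8, 73.4 and 42.3 in Rnf40+/+ and 121, 134 and 127 in Rnf40-/- libraries. The Rnf40-/- libraries lay close together and all above the Rnf40+/+ libraries, of which replicate 3 was low. The mean rose 2.02-fold, from 62.9 ± 17.8 to 127 ± 6.15 (SD, n = 3), with a log2 fold change of 1.05 (standard error 0.219, 95% interval 0.57 to 1.53, adjusted p = 0.00198). Without Rnf40+/+ replicate 3, the library with the lowest Cbx7 and the highest macrophage marker sum, the rise was 0.79, with the adjusted p still under 0.05. Apobec3, which lies between Cbx6 and Cbx7, did not pass the test (log2 fold change -0.30, adjusted p = 0.345).

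Cbx2 (ENSMUSG00000025577), the CBX protein known for compacting nucleosomes, fell about as far as Cbx6. Its normalised counts were 135, 156 and 171 in Rnf40+/+ and 83.6, 75.1 and 98.2 in Rnf40-/- libraries, with no overlap. The means were 154 ± 18.1 and 85.7 ± 11.7 (SD, n = 3), a log2 fold change of -0.84 (standard error 0.166, 95% interval -1.20 to -0.48, adjusted p = 0.00133). Without Rnf40-/- replicate 2 it was -0.75, beside -0.77 for Cbx6. Cbx2 lies on chromosome 11 of mm9 (118884276-118892584, plus strand) next to Cbx8 (ENSMUSG00000025578, 118897619-118902283, minus strand), with a gap of 5034 bases and no annotated gene of the table in between. Cbx8, a further reader linked to repression of Cdkn2a, had 150, 121 and 130 normalised counts in Rnf40+/+ and 106, 112 and 124 in Rnf40-/- libraries. The genotypes overlapped, and the difference of -0.23 (95% interval -0.56 to 0.10, adjusted p = 0.234) left both no change and a fall of the size seen in Ring1 within its interval.

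Levels of different genes were compared per kb of the longest annotated transcript. Cbx6 made up most of the transcripts of the 4 CBX members in both genotypes. Their summed level was 348, 362 and 367 normalised counts per kb in Rnf40+/+ MEFs and 231, 239 and 261 in Rnf40-/- MEFs, a smaller pool in each library. The share of Cbx6 in this pool went from 73.1% ± 1.49 to 62.3% ± 0.197 (SD, n = 3), and that of Cbx7 from 5.19% ± 1.55 to 15.4% ± 1.08. Cbx8, without a called change of its own, went from 10.5% ± 1.44 to 13.0% ± 0.215 of the smaller pool, again with no overlap. Cbx2 went from 11.2% ± 1.01 to 9.21% ± 0.857 with no overlap per kb, but with overlap where values were not divided by length. Shares of a pool depend on each other and were not tested. The ratio of Cbx6 to Cbx7 per kb was 11.6, 12.2 and 21.9 in Rnf40+/+ and 4.02, 3.78 and 4.37 in Rnf40-/- libraries. Cbx8 exceeded Cbx7 in every Rnf40+/+ library, at ratios of 1.95, 1.56 and 2.91, and was below it in every Rnf40-/- library, at 0.827, 0.791 and 0.925.

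**Figure D2:**
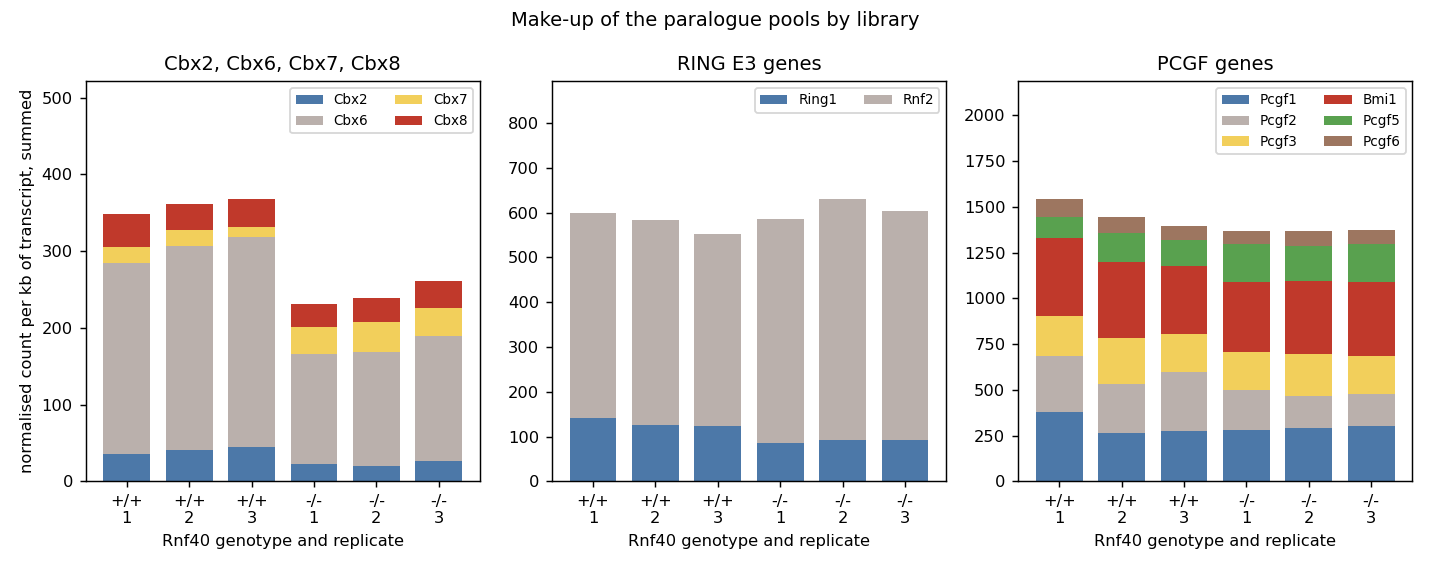
Normalised counts per kb of the longest transcript, stacked for the 4 CBX members (left), the RING E3 genes (middle) and the PCGF genes (right), in each of the 3 Rnf40+/+ and 3 Rnf40-/- libraries. The CBX pool was lower in each Rnf40-/- library while its Cbx7 layer was wider, the RING pool stayed within an overlapping range with less Ring1 in it, and in the PCGF pool the Pcgf2 layer was narrower and the Pcgf5 layer wider.

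The catalytic E3 ligase genes moved apart. Ring1 (ENSMUSG00000024325, chromosome 17 of mm9, 34157737-34161625, minus strand) was downregulated and its paralogue Rnf2 (ENSMUSG00000026484, chromosome 1, 153316536-153347953, minus strand), the main H2A ubiquitin ligase gene in most cells, was slightly higher. Ring1 had 359, 320 and 315 normalised counts in Rnf40+/+ and 219, 238 and 235 in Rnf40-/- libraries. These ranges were far apart compared with the spread (332 ± 24.2 and 231 ± 10.1, SD, n = 3), and limma gave a log2 fold change of -0.52 (standard error 0.107, 95% interval -0.75 to -0.29, adjusted p = 0.0017). Rnf2 had 1390, 1386 and 1297 against 1516, 1624 and 1548 normalised counts. The genotypes did not overlap, but the rise was small, from 1358 ± 52.6 to 1563 ± 55.3 (SD, n = 3), with a log2 fold change of 0.20 (standard error 0.0668, 95% interval 0.06 to 0.35, adjusted p = 0.0251). The call on Rnf2 was lost without Rnf40+/+ replicate 3 (0.17, adjusted p = 0.0596) and without Rnf40-/- replicate 1 (0.22, adjusted p = 0.0571), replicate 2 (0.18, adjusted p = 0.102) or replicate 3 (0.21, adjusted p = 0.0561). The members called higher are then 1, Cbx7, in place of 2.

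Per kb, the summed level of Ring1 and Rnf2 was 578 ± 24.4 (SD, n = 3) in Rnf40+/+ and 607 ± 21.6 in Rnf40-/- MEFs, with overlapping ranges. Within this sum, Rnf2 went from 77.5% ± 0.983 to 85.1% ± 0.322. The ratio of Rnf2 to Ring1 was 3.26, 3.65 and 3.47 in Rnf40+/+ and 5.83, 5.75 and 5.55 in Rnf40-/- libraries, so that the libraries of each genotype lay close together and the genotypes far apart.

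Of the PCGF partners of canonical PRC1, Pcgf2 was downregulated and Bmi1 did not pass the test. Pcgf2 (ENSMUSG00000018537) lies at 97550137-97561811 on chromosome 11 of mm9 on the minus strand, and Bmi1 (ENSMUSG00000026739) at 18598645-18608256 on chromosome 2 on the plus strand. Their RefSeq start windows, shown because these close paralogues behaved differently, differ in CpG content but both hold a CACGTG, in capitals. The Pcgf2 window (chr11:97560913-97561212) has 10 CpG and a start 849 bases downstream of the most upstream annotated one, and the Bmi1 window (chr2:18598395-18598694) has 23 CpG.
Pcgf2: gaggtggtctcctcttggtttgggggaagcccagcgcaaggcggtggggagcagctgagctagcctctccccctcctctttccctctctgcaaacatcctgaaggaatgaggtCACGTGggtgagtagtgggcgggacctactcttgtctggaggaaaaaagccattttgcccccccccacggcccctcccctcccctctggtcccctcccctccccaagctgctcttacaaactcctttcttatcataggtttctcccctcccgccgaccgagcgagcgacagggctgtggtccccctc
Bmi1: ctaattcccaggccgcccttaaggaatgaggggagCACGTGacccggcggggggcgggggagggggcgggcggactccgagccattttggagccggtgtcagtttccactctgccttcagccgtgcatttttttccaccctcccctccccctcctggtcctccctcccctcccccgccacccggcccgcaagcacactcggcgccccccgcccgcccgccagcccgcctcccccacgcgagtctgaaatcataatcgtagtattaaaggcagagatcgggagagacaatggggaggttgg

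Pcgf2 had 713, 638 and 751 normalised counts in Rnf40+/+ and 520, 415 and 399 in Rnf40-/- libraries. Each Rnf40-/- library was below the lowest Rnf40+/+ library, though replicate 1 stood above the other Rnf40-/- libraries. The mean went from 701 ± 57.1 to 445 ± 65.5 (SD, n = 3), or 63.5% of the Rnf40+/+ level (log2 fold change -0.66, standard error 0.111, 95% interval -0.90 to -0.42, adjusted p = 0.000429). Bmi1, known for its role in stem cell self-renewal, had 1539, 1500 and 1326 against 1377, 1432 and 1460 normalised counts. Here the genotypes overlapped, and the difference of -0.03 had a narrow interval (95% interval -0.19 to 0.13, adjusted p = 0.768). Its sign turned to 0.01 without Rnf40+/+ replicate 1 and to 0.02 under upper-quartile scaling, in both cases without a call. The ratio of Bmi1 to Pcgf2 per kb was 1.41, 1.53 and 1.15 in Rnf40+/+ and 1.73, 2.25 and 2.39 in Rnf40-/- libraries, with no overlap. Of the sum of both genes, Bmi1 made up 57.5% ± 3.59 (SD, n = 3) in Rnf40+/+ and 67.7% ± 3.81 in Rnf40-/- MEFs.

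The other PCGF genes belong to variant PRC1. Among all 6 PCGF genes per kb, the share of Pcgf2 went from 20.5% to 13.8% and that of Pcgf5 from 9.57% to 14.6%, both with no overlap, while those of Pcgf1, Pcgf3, Bmi1 and Pcgf6 overlapped between genotypes. Pcgf5, whose complex ubiquitinates H2A without a CBX protein, had 189, 254 and 236 normalised counts in Rnf40+/+ and 332, 309 and 337 in Rnf40-/- libraries. It rose by 0.54 on the log2 scale (standard error 0.126, adjusted p = 0.00407, limma). Pcgf1 (-0.05), Pcgf3 (-0.07) and Pcgf6 (-0.15) did not pass the test.

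Phc1 (ENSMUSG00000040669, chromosome 6 of mm9, 122267749-122290579, minus strand), which encodes a Polyhomeotic subunit, had 436, 294 and 264 normalised counts in Rnf40+/+ and 287, 303 and 277 in Rnf40-/- libraries. The Rnf40-/- libraries lay within the Rnf40+/+ range, of which replicate 1 formed the upper end. The difference of -0.16 (standard error 0.16, 95% interval -0.51 to 0.18, adjusted p = 0.423) became 0.05 without Rnf40+/+ replicate 1, so its sign rested on that library. Phc2 was measured at a higher level per kb in every library, while the ranges of Phc1 and Phc3 overlapped in Rnf40+/+ MEFs. Phc1 made up 8.94% ± 1.30 (SD, n = 3) of the PHC pool in Rnf40+/+ and 7.40% ± 0.391 in Rnf40-/- MEFs, with no overlap. Phc2 made up 79.2% of the PHC pool in Rnf40+/+ and 78.6% in Rnf40-/- MEFs and had 2676 ± 351 and 2829 ± 89.2 normalised counts (SD, n = 3). Its fold change of 0.09 did not pass the test (adjusted p = 0.426), but without Rnf40+/+ replicate 1 it was 0.19 with an adjusted p of 0.041. Phc3 had 1101, 1210 and 1046 against 1494, 1485 and 1295 normalised counts and rose by 0.35 on the log2 scale (adjusted p = 0.00432).

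**Figure D3:**
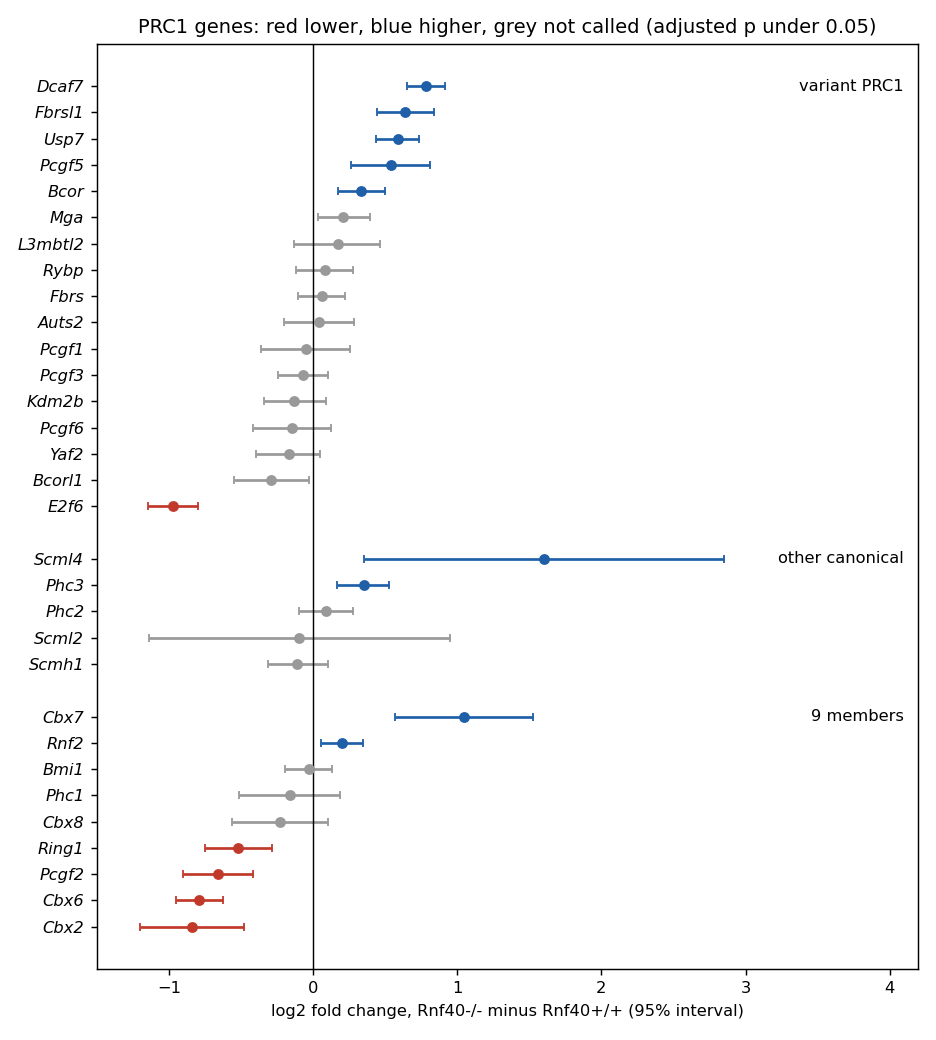
Log2 fold change of log2(normalised count + 1), Rnf40-/- minus Rnf40+/+, with its 95% interval (bars), for the 9 members, 5 further canonical subunit genes and 17 variant PRC1 genes; blue was called higher, red called lower and grey not called at an adjusted p under 0.05 (limma). The members spread from -0.84 (Cbx2) to 1.05 (Cbx7), and E2f6 at -0.97 is the only variant PRC1 gene called lower.

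Within Rnf40+/+ MEFs, the order of the members per kb was Rnf2 (448), Bmi1 (405), Pcgf2 (299), Cbx6 (262), Ring1 (130), Phc1 (78.6), Cbx2 (40.4), Cbx8 (37.4) and Cbx7 (18.6). The ranges of Rnf2 and Bmi1, of Pcgf2 and Cbx6 and of Cbx2 and Cbx8 overlapped over the 3 libraries, so these neighbours in the order were not separated. In Rnf40-/- MEFs the upper part of the order was the same, at 516 for Rnf2, 396 for Bmi1, 190 for Pcgf2, 152 for Cbx6, 90.4 for Ring1 and 68.5 for Phc1. The lower end was inverted, with Cbx7 at 37.5, Cbx8 at 31.8 and Cbx2 at 22.5 normalised counts per kb, and no neighbours overlapped. The order of Pcgf2 and Cbx6 rests on the transcript length. Per kb of merged exons Cbx6 was above Pcgf2, at 242 and 204 in Rnf40+/+ and, with overlapping ranges, at 140 and 129 in Rnf40-/- MEFs, and Cbx8 and Cbx2 were level in Rnf40+/+ MEFs, at 36.5 and 36.2.

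Across the 8 members with an entry in the RefSeq promoter table (GRCm38.p6), all but Cbx2, each window of 300 bases was found exactly 1 time on its chromosome of mm9. Ring1 held 37 CpG, Cbx7 33, Cbx6 31, Rnf2 30, Cbx8 24, Bmi1 23, Pcgf2 10 and Phc1 9, beside a median of 7 and quartiles of 3 and 20 over 32851 promoters. The highest counts were those of the downregulated Ring1 and the upregulated Cbx7, and a relation of CpG content to direction was not tested. Letters were searched on both strands for 10 motifs. CACGTG was present in 4 of the 8 windows (Cbx6, Cbx8, Pcgf2 and Bmi1) and in 7.15% of all promoters. GGGCGG, as bound by SP and KLF factors, was in 7 of 8 members and in 35.7% of all promoters. CCAAT was in 2 members and in 37.4% of promoters, and the CRE letters TGACGTCA in 1 (Cbx8) and in 1.79%. The ETS letters CCGGAA were in 1 (Ring1) and in 14.9%, and TTTGAA, the cell cycle element CHR, in 1 (Cbx7) and in 17.9%. None of the 8 windows held the E2F letters GCGGGAA, found in 4.60% of all promoters, or the NRF1 letters GCATGCGC, found in 2.71%. Nor did any hold AAGATGG, 1 form of the letters that YY1 binds, found in 6.34% of all promoters. The TATA box letters TATAAA, found in 13.6%, were absent as well. Each motif was searched in 1 form only, so other forms of its letters are not covered. A match describes the letters of the window and not binding. The shares of all promoters were not matched for CpG content, which was above the upper quartile in all windows but those of Pcgf2 and Phc1. Letters that hold CG, such as GGGCGG and CACGTG, were therefore not compared on equal terms. The 4 genes with CACGTG had log2 fold changes of -0.79 (Cbx6), -0.66 (Pcgf2), -0.23 (Cbx8) and -0.03 (Bmi1), with no call on Cbx8 and Bmi1. The windows without it were those of Ring1 (-0.52), Phc1 (-0.16), Rnf2 (0.20) and Cbx7 (1.05). A relation between these letters and the direction of change was not tested.

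The other genes of the complex gave a mixed picture. Over all genes tested, 23.3% were called higher and 24.1% lower, and the counts below were not tested against these shares. Of 5 further canonical subunit genes, 2 were higher (Phc3 and Scml4), and Phc2, Scmh1 (-0.11) and Scml2 (-0.10) did not pass the test, with a median log2 fold change of 0.09. Scml4 had few reads, at 2.39, 4.08 and 16.0 normalised counts in Rnf40+/+ and 24.5, 18.8 and 15.1 in Rnf40-/- libraries, and the genotypes overlapped. Its fold change of 1.60 (adjusted p = 0.0369) lost its call without Rnf40+/+ replicate 1 (1.11) or 2 (1.41), or without Rnf40-/- replicate 1 (1.43), 2 (1.61) or 3 (1.76). Of 17 genes of variant PRC1, 5 were higher, 1 was lower and 11 did not pass, with a median of 0.06. The number called higher was 6 without Rnf40+/+ replicate 1, where L3mbtl2 passed (0.34), and without Rnf40+/+ replicate 3 or Rnf40-/- replicate 3, where Mga passed (0.26 and 0.27). Dcaf7, a component of PCGF3 and PCGF5 complexes, rose most among them, from 2452, 2661 and 2533 to 4468, 4260 and 4421 normalised counts (log2 fold change 0.78, adjusted p = 1.21e-06). E2f6, the DNA-binding partner of PCGF6 complexes, fell from 1788, 1997 and 1681 to 981, 875 and 925 (-0.97, adjusted p = 1.88e-06). Rybp (0.08) and Yaf2 (-0.17), whose products replace CBX proteins, and Kdm2b (-0.13), which recruits PCGF1 complexes to CpG islands, did not pass the test.

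Genes that act before or against PRC1 were listed as well, beside the 23.3% of all genes tested that were higher and 24.1% that were lower. Of the 6 PRC2 core genes, 2 were higher, 2 were lower and 2 did not pass, with 1 in place of 2 higher without Rnf40-/- replicate 2 or 3, where Suz12 lost its call (0.21 and 0.25). Ezh2, which writes H3K27me3, had 506, 367 and 371 normalised counts in Rnf40+/+ and 184, 189 and 174 in Rnf40-/- libraries. All Rnf40-/- libraries were far lower (log2 fold change -1.17, standard error 0.134, adjusted p = 2.35e-05). Ezh1, its paralogue, rose most in this list (0.45, adjusted p = 0.00509, limma). The paper describes Ezh1, Eed and Suz12 mRNA as unaffected, and EZH1 and SUZ12 protein as decreased. The calls on Ezh1 and Suz12 differ from that account, at fold changes below the minimum of the study. Of 7 genes for enzymes that remove ubiquitin from H2A and their cofactors, 4 were higher and 1, Usp21 (-0.32, adjusted p = 0.031), was lower. These calls moved with single libraries, to 1 higher and 0 lower without Rnf40-/- replicate 1, 2 higher without Rnf40-/- replicate 3 or Rnf40+/+ replicate 2, 3 higher without Rnf40-/- replicate 2 or Rnf40+/+ replicate 1 or 3, and 0 lower without Rnf40-/- replicate 2 or Rnf40+/+ replicate 1. Asxl3, the largest rise (1.05, adjusted p = 0.0425), had 10.7 to 53.0 normalised counts and lost its call without Rnf40+/+ replicate 1 (0.82) or 2 (1.01) or Rnf40-/- replicate 1 (0.70) or 3 (1.19).

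The HP1 genes Cbx1, Cbx3 and Cbx5 share the chromodomain with the Polycomb CBX genes but bind H3K9 methylation. Cbx3 was lower, at 2406, 2516 and 2361 normalised counts in Rnf40+/+ and 1640, 1640 and 1695 in Rnf40-/- libraries (log2 fold change -0.55, adjusted p = 2.03e-05). Cbx1 (0.02, adjusted p = 0.913) and Cbx5 (-0.11, adjusted p = 0.171) did not pass the test.

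A list of 13 classic Polycomb targets, Cdkn2a, Cdkn2b and posterior Hox genes, had 6 genes with enough reads, and Hoxd12 was at 0 in all libraries. Of the 6, 2 were higher, 1 was lower and 3 did not pass, with a median log2 fold change of 0.29. Among all genes tested, 23.3% were higher and 24.1% lower. Cdkn2a, which encodes the cell cycle inhibitors p16 and p19ARF and is the best known PRC1 target in fibroblasts, had 6039, 7039 and 7530 normalised counts in Rnf40+/+ and 3547, 3056 and 3738 in Rnf40-/- libraries. All Rnf40-/- libraries were lower, with a log2 fold change of -0.99 (adjusted p = 4.91e-06, limma). Its neighbour Cdkn2b did not pass the test (0.11, adjusted p = 0.222). Hoxc13 rose most, from 70.5, 94.8 and 99.8 to 290, 301 and 276 normalised counts (1.71, adjusted p = 3.5e-06). The second gene called higher, Hoxa11 (0.50, adjusted p = 0.0294), lost its call without Rnf40+/+ replicate 2 or 3 or Rnf40-/- replicate 2 or 3, where the count was 1. Without Rnf40+/+ replicate 1 it was 3, as Hoxc10 then passed (0.34).

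**Figure D4:**
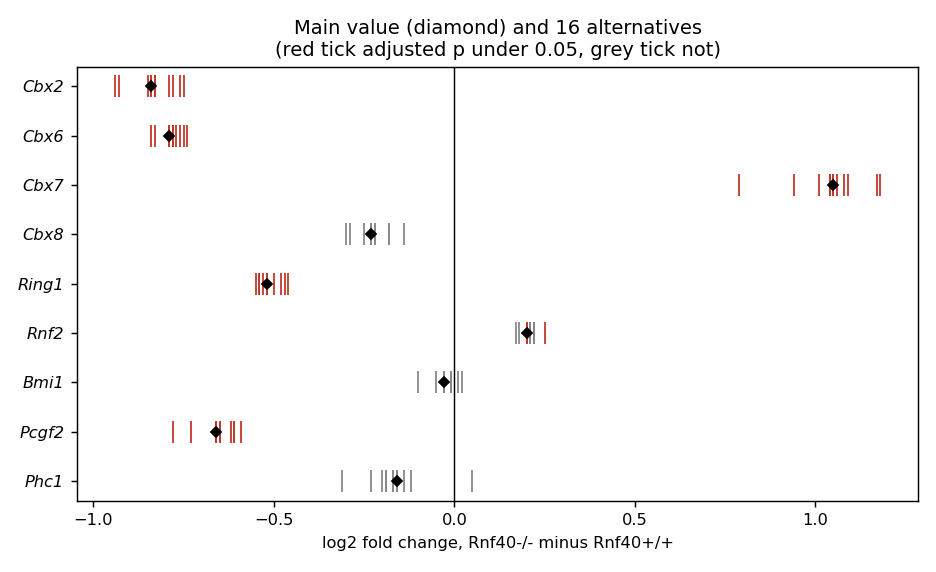
Log2 fold change of each PRC1 subunit gene, Rnf40-/- minus Rnf40+/+, as reported (diamond) and under 16 alternatives of normalisation, test, filter, pseudocount, replicate block and libraries left out (ticks, red where the adjusted p was under 0.05 and grey where not). Cbx2, Cbx6, Cbx7, Ring1 and Pcgf2 have red ticks only, Rnf2 has both kinds, and the ticks of Bmi1 and Phc1 cross 0.

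The calls on Cbx2, Cbx6, Cbx7, Ring1 and Pcgf2 held under each of these 16 alternatives. With a library left out, Cbx2 ranged from -0.94 to -0.75, Cbx6 from -0.84 to -0.75, Ring1 from -0.55 to -0.46, Pcgf2 from -0.78 to -0.59 and Cbx7 from 0.79 to 1.18.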

How the data were processed

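The authors mapped the reads of strand-specific RNA libraries to the mouse reference transcriptome (mm9) and normalised the counts with DESeq. The submitters' processing notes name Bowtie2 (2.1.0) and DESeq (1.14.0). The counting tool and its strand setting are not given in the sources used here. The deposited signal per gene is a DESeq-normalised count, and 100% of positive values in each library were whole multiples, within 0.02, of that of 1 read.

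Here, log2(normalised count + 1) was tested with limma (3.58.1, trend) in R (4.3.3), genotype as the only term, over 16378 genes that passed filterByExpr of edgeR (4.0.16) by genotype on the recovered reads, with Benjamini-Hochberg adjustment. The added 1 understates the change of genes with few reads. DESeq2 (1.42.0) and edgeR served as alternatives, each tested with limma on simulated data of 16195 genes, of which 200 were changed. Of these 200, limma and edgeR recovered 200 and DESeq2 199, with 21 (limma), 18 (edgeR) and 24 (DESeq2) false calls. Recovery with a share of changed genes as high as the 47.4% called here was not tested. Nor was recovery tested separately at the fold changes and read counts of the members. A gene was called at an adjusted p under 0.05. Positions and transcript lengths are from the mm9 annotation (GENCODE), promoter windows from RefSeq.

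The members and the gene lists, the latter from general knowledge, were chosen with earlier results of these data known. All 9 members are named, with further canonical subunits, PCGF genes, Rybp, Yaf2, Kdm2b, the HP1 genes, Cdkn2a, Cdkn2b, Ezh2 and the called gene with the largest rise and fall of each Polycomb list. Marker and proliferation lists are given mainly by counts and sums. Usp21, Suz12, Mga, L3mbtl2, Dcn, Vim, Tek, Lyz2, Ptprc, Hoxa11, Hoxc10, Hoxd12, Npcd and Apobec3 were added after their values were seen. A further gene of the lists is not reported here. The 5 genes most like Cbx7 and Cbx2 were ranked by Euclidean distance over the 6 libraries.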

Additional observations from a re-analysis of the deposited data

How the results depend on the processing

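Of 160 fold changes of the members and Rnf40 under the alternatives, 153 kept their direction and their side of the threshold. The exceptions were Rnf2, whose call was lost 4 times with a library left out, and the sign of Bmi1 (0.02 under upper-quartile factors, and from -0.10 to 0.01 with a library left out, positive without Rnf40+/+ replicate 1) and Phc1 (0.05 without Rnf40+/+ replicate 1), neither of which was called. With a library left out, the members called higher ranged from 1 to 2 and the median of the members from -0.31 to -0.14. By the criteria of the study, applied to the limma fit, 1 member was higher and 0 were lower, as these set a minimum fold change. Upper-quartile factors moved the median of all genes to 0.044 and the share of calls that were higher from 49.1% to 54.9%. Deviations of libraries with the same replicate number correlated at -0.015, 0.026 and 0.022, and those with unlike numbers at -0.095 to 0.072. With 3 libraries per genotype, these values cannot decide whether the numbers pair the samples. A replicate block left 2 members higher and 4 lower and gave 4021 higher and 4196 lower calls over all genes, against 3809 and 3955 without it. Without division by length, the share of Cbx6 in the CBX pool was 81.3% and 73.0% and that of Cbx7 3.37% and 10.5% in Rnf40+/+ and Rnf40-/- MEFs, and with merged exons Rnf2 made up 81.4% and 87.9% of its pool, each in the reported direction. Cbx7, with the fewest reads of the members, had the widest interval.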

Other observations

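The genes whose values over the 6 libraries were most like those of Cbx7, by the Euclidean distance of log2 differences from the Rnf40+/+ mean over 15498 genes, were Dusp8 (0.239), Kcnq5 (0.247), AK077157 (0.257), Ifih1 (0.274) and 2310002L13Rik (0.284). Ifih1, a sensor of double-stranded RNA, had 138 ± 30.2 (SD, n = 3) normalised counts in Rnf40+/+ and 262 ± 19.9 in Rnf40-/- MEFs, and Dusp8, a phosphatase of MAP kinases, had 98.8 ± 22.8 and 214 ± 15.2 (SD, n = 3). For Cbx2 they were Ccdc102a (0.112), Dhrs4 (0.115), Zcchc18 (0.12), Prdx5 (0.127) and Clybl (0.146), of which Prdx5, a peroxiredoxin, had 2711 ± 242 and 1472 ± 187 (SD, n = 3). The ranking uses the same 6 libraries as the comparison and is a description without a test.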
